A study of Mus musculus with 8 samples.

Results

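The miR-379 to miR-410 cluster is a run of microRNA (miRNA) hairpins on mouse chromosome 12, in the imprinted Dlk1-Dio3 region. Of its mature miRNAs, 34 were examined in whole mouse hearts after myocardial infarction (MI). The 34 mature miRNAs were chosen by name, as 34 listed probe sets of the Affymetrix miRNA 4.0 array, out of 1908 mature miRNA probe sets in a table of 3222 rows. They are not the whole cluster. Other mature miRNAs from the same hairpins, and further hairpins inside the cluster, are not on the list. The list is one of place in the genome and no measured value decides membership, but it was chosen with earlier results of these data known.

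miRNAs are short RNAs that pair with messenger RNAs, mainly through the seed at bases 2 to 8, and lower their stability or translation. Each is cut from a hairpin, whose arms are called 5p and 3p. The cluster is expressed from the maternal chromosome, together with the long non-coding RNAs Meg3, Rian and Mirg, and its miRNAs are thought to be cut from one long transcript. They are best known from brain, placenta and the embryo, and in mouse muscle the transcription factor MEF2A activates the cluster.

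The MI group holds 4 hearts taken 21 days after surgical closure of a main coronary artery, the left anterior descending artery, and the Sham group 4 hearts taken 21 days after sham surgery. All were male C57/BL6 mice labelled as 8 weeks old. Both groups carry the suffix nc in their titles, which the labels do not explain, so that any agent given to both groups is unknown here. The hearts are numbered 1, 4, 5 and 7 in the MI group and 1 to 4 in the Sham group, with 1 array each, and the labels do not mention pooling.

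The values are log2 intensities after RMA, the standard background correction, normalization and summary for Affymetrix arrays. Of 22 spike-in controls, 17 read near the floor of the scale, and the highest of these reached 2.06 on any array. A value at or below 2.06 is called here not above the dim controls. Between 457 and 546 mature probe sets exceeded 2.06 on each array. The 2.06 was read on the array of Sham heart 2 alone. On the other arrays the highest dim control lay between 1.45 (MI heart 4) and 1.80 (Sham heart 1). A value called not above the dim controls can therefore exceed those of its own array. A level compares hearts for the same probe set only, since probe sets differ in how strongly they bind. Rows for heart muscle or other cell type miRNAs could not be matched to names with the tables used here, so the tissue label and the mix of cells were not checked.

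Of the 34 members, 31 were matched by name to a mature sequence in RefSeq (build GRCm38.p6). The following 10 are shown because their values in MI hearts all lay above those in Sham hearts. All lie on the plus strand, and capitals mark the seed.
miR-379-5p, chr12:109709065-109709085: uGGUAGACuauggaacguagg
miR-411-3p, chr12:109710225-109710246: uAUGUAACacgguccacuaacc
miR-299a-5p, chr12:109710644-109710665: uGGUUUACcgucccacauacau
miR-329-3p, chr12:109713541-109713562: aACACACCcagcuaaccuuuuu
miR-300-3p, chr12:109724363-109724384: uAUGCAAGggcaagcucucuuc
miR-382-5p, chr12:109733781-109733802: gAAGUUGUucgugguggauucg
miR-134-5p, chr12:109734145-109734166: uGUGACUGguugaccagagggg
miR-154-5p, chr12:109738438-109738459: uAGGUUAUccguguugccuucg
miR-541-5p, chr12:109742422-109742446: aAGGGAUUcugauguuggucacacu
miR-409-3p, chr12:109743204-109743225: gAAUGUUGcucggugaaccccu
Over the 31 members with a sequence there were 31 distinct seeds, so none of these 31 shared its seed with another of them.

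At 21 days, miR-329-3p and miR-134-5p rose in MI hearts past the threshold relative to Sham hearts, and no cluster member was lower past it. This is 2 of 34 members (limma, Benjamini-Hochberg adjusted p under 0.05 over 1908 mature probe sets), where 0.524% of all mature probe sets were called higher and 0 called lower. A further 5 members had an adjusted p under 0.1, which makes 7 of 34 higher against 1.1% of all mature probe sets. In 11 of 34 members the groups did not overlap, with all MI values above all Sham values, against 2.88% of all mature probe sets. In 0 of 34 all MI values lay below all Sham values, against 1.26%. At an unadjusted p under 0.05, 12 members were higher and 1 was lower in MI hearts, against 3.09% and 3.2% of all mature probe sets.

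The median difference over the 34 members, MI minus Sham, was 0.29 log2 units, beside -0.0039 over all mature probe sets. The differences ran from -0.32 to 2.35, with 27 above 0 and 7 below. In 11 of 34 members the difference exceeded 1 log2 unit, against 1.78% of all mature probe sets, and in 0 of 34 it was below -1, against 0.472%. Among the 521 mature probe sets with a mean above the dim controls, 6.33% exceeded 1 log2 unit and 6.14% had all MI values above all Sham values. That set holds 14 of the 34 members, among them all those that exceeded 1 log2 unit. It is chosen by the mean over both groups, so that probe sets dim in Sham hearts can enter it through their MI values. The hearts were profiled whole, so that more cells carrying these miRNAs and more miRNA per cell cannot be told apart.

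**Figure D1:**
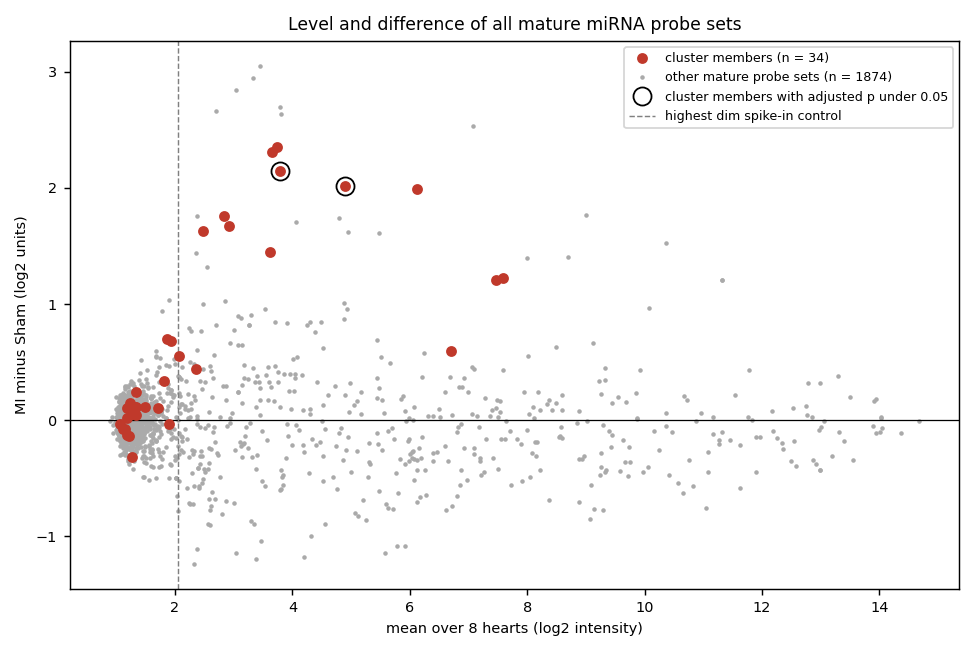
Difference between MI and Sham hearts (log2 units) against the mean over the 8 hearts (log2 intensity) for the 34 cluster members (red) and the 1874 other mature probe sets (grey), with circles around the 2 members with an adjusted p under 0.05 and a dashed line at the highest dim control, 2.06. Most members sit in the dense group of dim probe sets around 0, while 11 members lie above a difference of 1.

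miR-329-3p has been studied in mice with restricted limb blood flow, where inhibiting it increased new vessel growth. Its probe set (MIMAT0000567_st) measured 6.40, 5.90, 5.56 and 5.77 log2 units in MI hearts 1, 4, 5 and 7, against 3.57, 4.11, 3.98 and 3.90 in Sham hearts 1 to 4. The lowest MI heart stood well above the highest Sham heart, and all 8 hearts were above the dim controls. The means were 5.91 ± 0.356 in MI hearts and 3.89 ± 0.227 in Sham hearts (SD, n = 4 each). The difference was 2.02 ± 0.193 (SE), a 4.05-fold rise (limma, adjusted p = 0.00279), and it ranked at 4 by p among the 1908 probe sets. The call held when any 1 heart was left out (limma, adjusted p from 0.00271 to 0.0159). It was lost with the replicate number as a block (limma, adjusted p = 0.688), a fit that rests on hearts 1 and 4 of each group.

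miR-134-5p is known for limiting the growth of dendritic spines in rat neurons. Its probe set (MIMAT0000146_st) measured 5.56, 4.92, 4.64 and 4.30 log2 units in MI hearts 1, 4, 5 and 7. The Sham hearts 1 to 4 measured 2.69, 2.10, 3.43 and 2.63. The groups did not overlap, and Sham heart 2 lay just above the dim controls. The means were 4.85 ± 0.533 in MI hearts and 2.71 ± 0.545 in Sham hearts (SD, n = 4 each), a difference of 2.14 ± 0.335 (SE), or 4.41-fold (limma, adjusted p = 0.0390). This call was the less firm of the pair. It was lost in 7 of the 8 fits that left out 1 heart, with adjusted p from 0.0156 to 0.160 (limma) and differences from 1.91 to 2.38, and it held without Sham heart 3. It was also lost after quantile normalization (limma, adjusted p = 0.182), in the unmoderated test (adjusted p = 0.235) and with the replicate block (limma, adjusted p = 0.595).

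**Figure D2:**
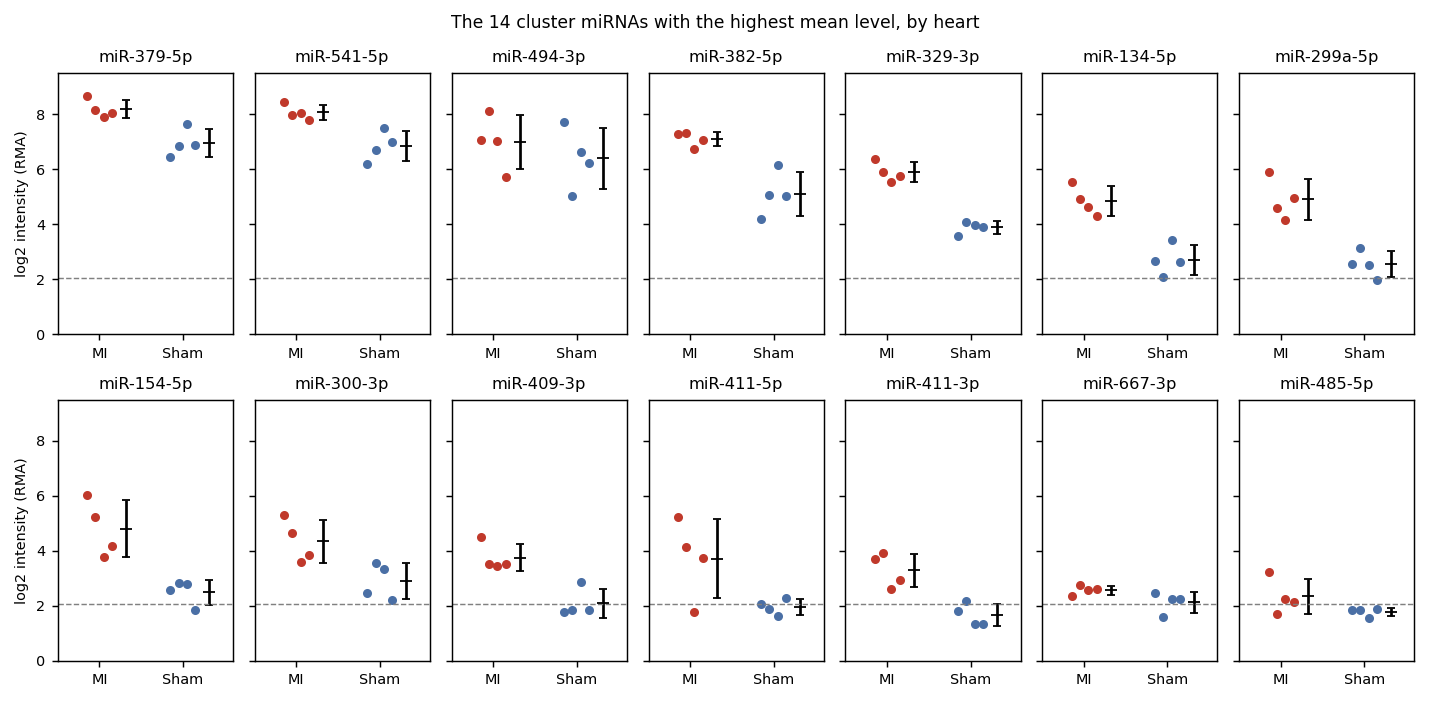
log2 intensity in each heart for the 14 cluster miRNAs with the highest mean level, with MI hearts in red on the left of each panel and Sham hearts in blue on the right. Points are hearts in the order of their numbers, bars are the mean ± SD (n = 4), and the dashed line is the highest dim control, 2.06. In 10 of the 14 panels the red points all lie above the blue ones. Among the 521 mature probe sets with a mean above the dim controls the share was 6.14%. The choice by mean level over both groups lets members dim in Sham hearts enter through their MI values.

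Among the members that were above the dim controls in all 8 hearts, miR-379-5p, whose hairpin opens the cluster, and miR-541-5p had close differences. The probe set of miR-379-5p (MIMAT0000743_st) measured 8.66, 8.18, 7.89 and 8.05 in MI hearts 1, 4, 5 and 7, against 6.47, 6.85, 7.67 and 6.88 in Sham hearts 1 to 4. That of miR-541-5p (MIMAT0003170_st) measured 8.45, 7.98, 8.06 and 7.81 in the MI hearts, against 6.21, 6.72, 7.52 and 7.01 in the Sham hearts. In both, the MI hearts lay close together and above all Sham hearts, and Sham heart 3 came nearest to them. The difference was 1.23 ± 0.267 (SE) for miR-379-5p (limma, adjusted p = 0.129). It was 1.21 ± 0.271 (SE) for miR-541-5p (limma, adjusted p = 0.140). Of the 8 fits that left out 1 heart, each passed in 1 only, without Sham heart 3, with a difference of 1.46 for miR-379-5p (limma, adjusted p = 0.0224) and 1.43 for miR-541-5p (limma, adjusted p = 0.0385). In the other 7 the adjusted p reached 0.385 for miR-379-5p and 0.441 for miR-541-5p (limma).

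miR-382-5p had the same arrangement with a wider gap. Its probe set (MIMAT0000747_st) measured 7.28, 7.33, 6.76 and 7.09 in MI hearts 1, 4, 5 and 7, against 4.20, 5.06, 6.16 and 5.05 in Sham hearts 1 to 4. The MI hearts spread less than the Sham hearts, with an SD of 0.260 in MI hearts and 0.803 in Sham hearts, and the groups did not overlap. The difference was 1.99 ± 0.370 (SE, limma adjusted p = 0.0741). Without Sham heart 3, again the highest of its group, the difference was 2.34 (limma, adjusted p = 0.00947). It did not pass in the other 7 fits that left out 1 heart (limma, adjusted p up to 0.245), and it passed in 6 of 17 alternative fits in all. These 6 include the restrictions to the brightest 50% and 25% of mature probe sets. Both choose by the mean over both groups, so passing in them supports nothing.

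miR-494-3p differed from these in that its groups overlapped widely. It has been reported to protect mouse hearts from injury after interrupted blood flow when overexpressed. Its probe set (MIMAT0003182_st) measured 7.08, 8.14, 7.04 and 5.74 in MI hearts 1, 4, 5 and 7, against 7.73, 5.04, 6.64 and 6.22 in Sham hearts 1 to 4. One Sham heart exceeded 3 of the MI hearts. The difference of 0.59 ± 0.644 (SE) had a 95% interval from -0.89 to 2.08 (limma, adjusted p = 0.933), so neither a rise of the size seen in miR-382-5p nor no change lay outside it.

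The next members by level were nearer to the dim controls in Sham hearts. The probe set of miR-299a-5p (MIMAT0000377_st) measured 5.92, 4.60, 4.15 and 4.96 in MI hearts 1, 4, 5 and 7, against 2.57, 3.15, 2.52 and 1.98 in Sham hearts 1 to 4. Every MI heart lay about 1 log2 unit or more above the highest Sham heart. Its difference of 2.35, the largest of the 34, had a standard error of 0.390 and narrowly missed the threshold (limma, adjusted p = 0.0517). It passed in 8 of 17 alternative fits, among them quantile normalization (limma, adjusted p = 0.0255) and 2 of the 8 fits that left out 1 heart, those without MI heart 1 or 5 (limma, adjusted p = 0.0422 and 0.0466). In the other 6 the adjusted p reached 0.195 (limma). The 8 of 17 include both restrictions to the brightest probe sets, and passing in those supports nothing.

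miR-154-5p, from the hairpin that gives the wider miR-154 family its name, was the most spread of the non-overlapping members in MI hearts. Its probe set (MIMAT0000164_st) measured 6.04, 5.24, 3.77 and 4.17 in MI hearts 1, 4, 5 and 7, against 2.56, 2.81, 2.78 and 1.83 in Sham hearts 1 to 4. MI hearts 1 and 4 stood apart from hearts 5 and 7, and all were above the Sham hearts. The difference was 2.31 ± 0.490 (SE, limma adjusted p = 0.123), and it passed in 3 of 17 alternative fits. These 3 include the restriction to the brightest 25% of mature probe sets. That restriction chooses by the mean over both groups, so passing in it supports nothing.

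The probe set of miR-409-3p (MIMAT0001090_st) measured 4.51, 3.53, 3.46 and 3.51 in MI hearts 1, 4, 5 and 7, against 1.77, 1.84, 2.86 and 1.86 in Sham hearts 1 to 4. MI heart 1 and Sham heart 3 each stood above the rest of their group, and 3 of 4 Sham hearts were not above the dim controls. The difference was 1.67 ± 0.320 (SE, limma adjusted p = 0.0819), and without Sham heart 3 it was 1.93 (limma, adjusted p = 0.0218). It did not pass in the other 7 fits that left out 1 heart (limma, adjusted p up to 0.274) or after quantile normalization (limma, adjusted p = 0.442). Where Sham values are not above the dim controls, the floor of the scale can shrink a difference, so no fold is given.

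The hairpins of miR-411 and miR-299a are shown with their mature arms in capitals, because both arms of each are members and can be compared in the same hearts. Both are on the plus strand.
Mir411, chr12:109710175-109710256: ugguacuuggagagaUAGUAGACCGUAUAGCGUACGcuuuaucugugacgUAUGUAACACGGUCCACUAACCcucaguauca
Mir299a, chr12:109710638-109710700: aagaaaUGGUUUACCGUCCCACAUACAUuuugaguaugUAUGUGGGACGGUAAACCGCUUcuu
The arms of a hairpin are given side by side, and the contrast between them was not tested. miR-411-3p measured 3.70, 3.91, 2.62 and 2.93 in MI hearts 1, 4, 5 and 7, against 1.81, 2.16, 1.34 and 1.34 in Sham hearts 1 to 4, a difference of 1.63 ± 0.321 (SE, limma adjusted p = 0.0848). miR-411-5p measured 5.22, 4.15, 1.76 and 3.74 in the MI hearts, against 2.06, 1.86, 1.62 and 2.29 in the Sham hearts, a difference of 1.76 ± 0.639 (SE, limma adjusted p = 0.625). MI heart 5 was the lowest MI heart for both arms, and for the 5p arm it fell among the Sham hearts. The 5p arm passed in 1 of 17 alternative fits, the one without that heart (difference 2.41, limma adjusted p = 0.0466), and its adjusted p reached 0.954 when another heart was left out (limma).

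For miR-299a, the 5p arm had the difference of 2.35 given above, while the 3p arm was not above the dim controls in any heart. miR-299a-3p measured 1.55 ± 0.329 in MI hearts and 1.43 ± 0.328 in Sham hearts (SD, n = 4 each), a difference of 0.12 ± 0.211 (SE, limma adjusted p = 0.970). For miR-485, with a 5p arm known to act on synapses in rat neurons, neither arm passed. miR-485-5p measured 3.24, 1.71, 2.26 and 2.15 in MI hearts 1, 4, 5 and 7, against 1.85, 1.83, 1.56 and 1.88 in Sham hearts 1 to 4, and MI heart 4 lay among the Sham hearts. Its difference was 0.55 ± 0.293 (SE, limma adjusted p = 0.846), and that of miR-485-3p was 0.33 ± 0.272 (SE, limma adjusted p = 0.920). Neither arm of miR-380 or miR-369 was above the dim controls in any heart.

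One pair of members with like sequences is shown because a probe can pair with a near match. miR-300-3p and miR-381-3p were the most alike pair among the 31 members with a sequence when aligned at their 5′ ends without gaps, with 19 of 22 bases identical. Capitals again mark the seed.
miR-300-3p, chr12:109724363-109724384: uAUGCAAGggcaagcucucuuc
miR-381-3p, chr12:109726870-109726891: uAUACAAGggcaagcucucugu
Counted from 1 at the 5′ end, with the base of miR-300-3p first, they differ by G4A, U21G and C22U, the first of which lies in the seed. miR-300-3p measured 5.31, 4.64, 3.61 and 3.84 in MI hearts 1, 4, 5 and 7, against 2.47, 3.56, 3.33 and 2.22 in Sham hearts 1 to 4. The groups were separated only narrowly, between MI heart 5 and Sham heart 2. The difference was 1.45 ± 0.443 (SE, limma adjusted p = 0.459), and miR-300-3p passed in 0 of the 17 alternative fits. miR-381-3p was above the dim controls in Sham heart 3 alone, at 2.42, and its difference was 0.11 ± 0.239 (SE, limma adjusted p = 0.972). Against the dim controls of its own array, it was also above in MI hearts 1, 4, 5 and 7, at 1.54 to 1.96. It was not so in Sham hearts 1, 2 and 4. The contrast between these members, and any cross-reaction, was not tested.

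The remaining named member, miR-667-3p, measured 2.36, 2.74, 2.57 and 2.61 in MI hearts 1, 4, 5 and 7, against 2.46, 1.58, 2.25 and 2.24 in Sham hearts 1 to 4. MI heart 1 lay below Sham heart 1, so the groups overlapped. The difference was 0.44 ± 0.191 (SE, limma adjusted p = 0.762).

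The other 20 members read between 0.865 and 3.09 in single hearts, and their differences ran from -0.32 to 0.70. Of these, 15 were not above the dim controls in any heart, so that a change in them could not have been seen unless it lifted them above the floor. They include miR-495-3p and miR-410-3p, which promote heart muscle cell division when overexpressed in rat cells, and all the miR-376 members. miR-495-3p measured 1.36 ± 0.204 in MI hearts and 1.32 ± 0.124 in Sham hearts (SD, n = 4 each). miR-410-3p measured 1.20 ± 0.147 in MI hearts and 1.18 ± 0.0443 in Sham hearts (SD, n = 4 each). The member that was lower at an unadjusted p under 0.05 was also of this kind. It was miR-380-5p, with 1.11 ± 0.117 in MI hearts and 1.43 ± 0.184 in Sham hearts (SD, n = 4 each, difference -0.32, limma adjusted p = 0.621).

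One of these dim members had groups that did not overlap, and it was singled out after its values were seen. miR-487b-3p measured 2.37, 2.35, 1.99 and 2.13 in MI hearts 1, 4, 5 and 7, against 1.67, 1.22, 1.64 and 1.49 in Sham hearts 1 to 4. It was above the dim controls in 3 MI hearts and in no Sham heart. The difference was 0.70 ± 0.136 (SE, limma adjusted p = 0.0819).

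Along the chromosome, the 31 placed members span 34.7 kb, from base 109709065 to base 109743784. The 10 placed members with non-overlapping groups were found from the first miRNA, miR-379-5p, to 34.1 kb downstream, where miR-409-3p lies. RefSeq places 8 of the 31 within the non-coding gene Mirg (chr12:109734981-109749458), and 3 of these 8 had non-overlapping groups. The other 23 lie before its start and within no other gene of the RefSeq table than their own miRNA genes, and 7 of these 23 had non-overlapping groups. Over all mature probe sets the share was 2.88%, and the counts before and within Mirg were not tested against each other. Among the placed members, miR-409-3p is followed by miR-412-3p, miR-369-5p, miR-369-3p and miR-410-3p, none of which was above the dim controls in any heart.

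**Figure D3:**
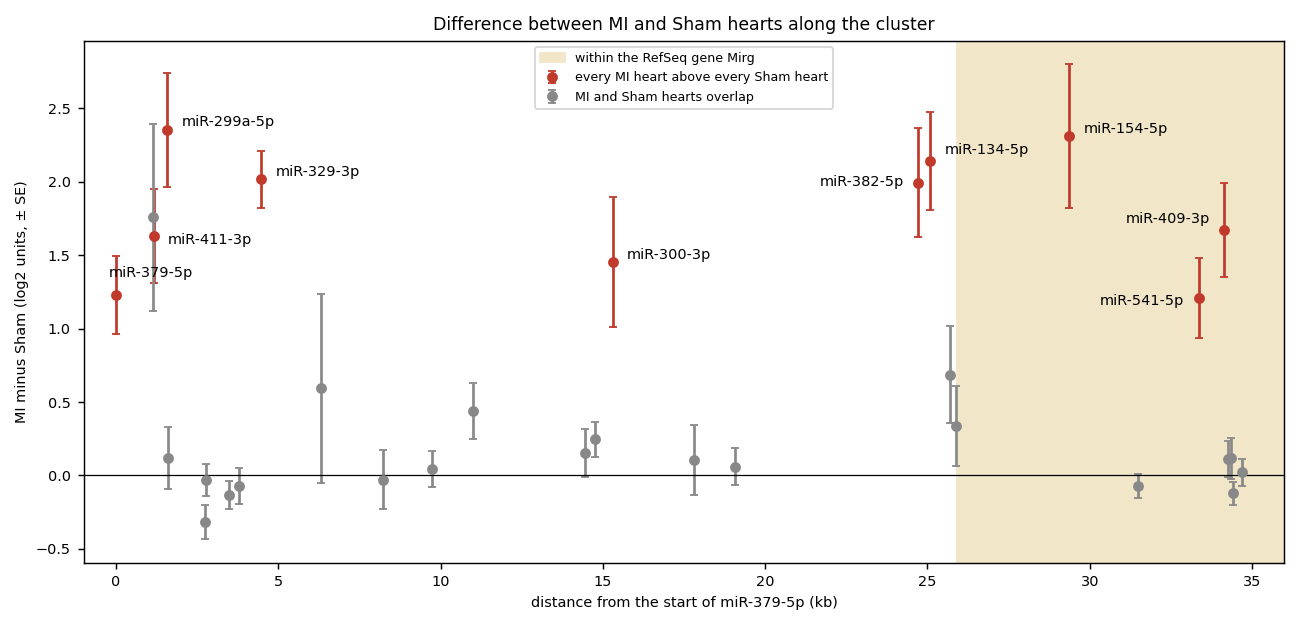
Difference between MI and Sham hearts (log2 units, bars are standard errors) for the 31 placed members against their distance from the start of miR-379-5p (kb), with members whose MI hearts all lay above the Sham hearts in red, the others in grey, and the extent of Mirg shaded. The 10 red points occur at both ends and in the middle of the cluster, next to grey points near 0.

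The hearts of a group did not contribute alike. Over the 14 members of highest level, MI heart 1 had the highest MI value in 10 and MI heart 4 in the other 4, while MI heart 5 had the lowest in 9. The members share the same arrays, and these counts were not made over all mature probe sets. The median level over all 34 members, dim ones included, was 2.24, 1.73, 1.75 and 1.81 log2 units in MI hearts 1, 4, 5 and 7. In Sham hearts 1 to 4 it was 1.71, 1.50, 1.59 and 1.45, and the lowest MI heart lay just above the highest Sham heart. Between 13 and 18 of the 34 members were above the dim controls in MI hearts, and between 9 and 13 in Sham hearts. Over all mature probe sets the Sham hearts lay on both sides of the MI hearts. Sham hearts 1 and 2 had more probe sets above the dim controls than any MI heart, with 546 in Sham heart 1. Sham hearts 3 and 4 had fewer than any MI heart, with 457 each. The member counts were not tested against these.

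The bacterial hybridisation controls, which report on the array step, averaged 11.5 ± 0.147 log2 units in MI hearts and 11.4 ± 0.367 in Sham hearts (SD, n = 4 each; difference 0.049, exact two-sided permutation test, p = 0.857, where the smallest possible p is 0.0286). They were 11.4, 11.6, 11.7 and 11.4 in MI hearts 1, 4, 5 and 7, and 11.2, 11.1, 11.9 and 11.6 in Sham hearts 1 to 4. Sham heart 3, with the highest controls, was also the Sham heart nearest to the MI hearts for miR-379-5p, miR-541-5p, miR-382-5p, miR-134-5p and miR-409-3p. Sham heart 2, with the lowest controls, was nearest to the MI hearts for miR-329-3p, miR-299a-5p, miR-154-5p, miR-300-3p and miR-411-3p. Over the 14 members of highest level, Sham hearts 2 and 3 each had the highest Sham value in 5. The part of the array step in these values was not tested. Without Sham heart 3, 6 of the 34 members passed the threshold, while the fits without any other single heart called 1 to 3. In the fit without Sham heart 3 the count over all 1908 mature probe sets was 17, against 10 with all hearts.

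**Figure D4:**
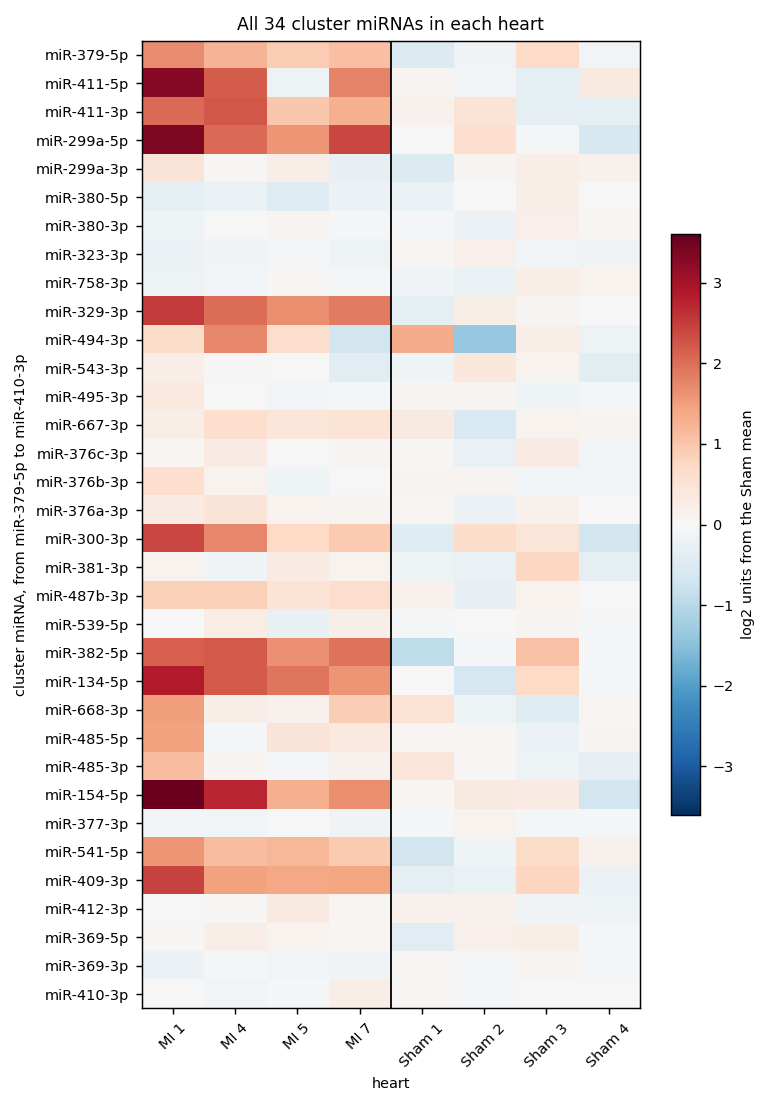
Each of the 34 members in each heart, as log2 units from its Sham mean (red above, blue below), with the 4 MI hearts on the left of the line and the 4 Sham hearts on the right. Red rows such as miR-329-3p, miR-134-5p and miR-154-5p are interspersed with rows that are pale in all 8 hearts, and MI heart 1 is the reddest column.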

How the data were processed

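RMA is the authors' processing step named in the submitters' processing notes, and the deposited table holds its output as log2 intensity per probe set. Per the labels' protocols, total RNA was tailed with poly(A), labelled with biotin and hybridised to Affymetrix miRNA 4.0 arrays. RMA's software, version and detection calls: not given in the sources used here. Scanner files were not analysed here, so background correction was not varied. The number of arrays limits the precision. Each array is 1 heart per the labels, which do not mention litters, surgery days or array batches.

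Groups were taken from the titles. The members' names came from the list that defines the cluster, and sequences from RefSeq. The members and lists were chosen with earlier results of these data known. The files and tables do not pair the other rows with names, so the lists of other Dlk1-Dio3 miRNAs, hairpin probe sets of the cluster and cell type markers matched 0 rows and were not tested.

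One two-sided limma model (limma 3.58.1, R 4.3.3, moderated by eBayes) with group as its term was fitted to 1908 mature probe sets, with Benjamini-Hochberg adjustment and a threshold of 0.05. The fit was run on simulated data, with independent values and changes placed in bright probe sets only. This did not test shared array effects or dim probe sets. The rule for naming took the 14 members of highest mean level, any past the threshold and any with non-overlapping groups and a mean above the dim controls. The level of the dim controls was chosen after seeing the data. Alternatives were restriction to the brightest 50% or 25%, quantile normalization, centring of each array on its brightest 25%, a robust prior with a trend in intensity, an unmoderated test, weighting of arrays, a replicate block, adjustment together with 1255 hairpin probe sets, and omission of each array in turn. Hearts of both groups share the numbers 1 and 4 only. Their deviations from the group means had correlations of -0.29 (number 1) and -0.045 (number 4). The numbers were therefore not used as pairs in the main fit, only in the replicate block.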

Additional observations from a re-analysis of the deposited data

Results flagged for a closer look

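In 3 of 28 groups of 4 hearts examined, 1 heart stood apart from the other 3 by more than Dixon's 95% critical share of the group's range, where chance, at about 1 in 20, gives 1.4. miR-409-3p had such a value in both groups. MI heart 1 measured 4.51 log2 units and the other MI hearts 3.46 to 3.53, so that the gap took up 0.934 of the range. Sham heart 3 measured 2.86 and the other Sham hearts 1.77 to 1.86, so that the gap took up 0.916 of the range. Without MI heart 1 the difference was 1.42 (limma, adjusted p = 0.119) and without Sham heart 3 it was 1.93 (limma, adjusted p = 0.0218), against 1.67 with all hearts. For miR-485-5p, Sham heart 3 measured 1.56 and the other Sham hearts 1.83 to 1.88, a gap of 0.846 of the range, with all 4 values below the dim controls.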

How the results depend on the processing

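As deposited, the values gave 2 members past the threshold. Restriction to the brightest 50% of mature probe sets (which hold 24 members) gave 6, the brightest 25% (13 members) 7, centring on the brightest 25% gave 8, a trend with a robust prior 5, weighting of arrays 5 and the unmoderated test 1. All were rises, and miR-329-3p was among them. Quantile normalization called 2, miR-329-3p and miR-299a-5p, and joint adjustment with hairpins 2. Leaving out each heart gave 1 to 6. With the replicate number as a block, 0 members passed, and the adjusted p of miR-329-3p was 0.688 and that of miR-134-5p 0.595, with differences of 2.41 and 2.58. That fit shares 2 numbers only. Over all mature probe sets the count was 10, and it was 20, 22, 16, 25, 18 and 17 in the brightest 50%, the brightest 25%, after quantile normalization, centring, the trend and the weights, 0 with the block, and 7 to 17 without each heart. The causes were not tested, except that restriction tests fewer probe sets. The median difference of the members moved from 0.29 to 0.70 and 1.67 in the brightest 50% and 25%, since these leave out dim members. The restriction uses the mean over both groups, so that members dim in Sham hearts can be kept through their MI values. The larger counts and medians under restriction therefore support nothing. The tallies of alternative fits include both restrictions and the replicate block. The median difference of the members was 0.18 to 0.37 without each heart. Centring moved the median of all mature probe sets from -0.0039 to 0.11, that of the members to 0.40, and the split at an unadjusted p under 0.05 from 59 higher and 61 lower to 73 higher and 20 lower. The count of members with non-overlapping groups was 11 after centring, 9 after quantile normalization and 11 to 13 without each heart (settings chosen after seeing the data). No named member changed sign in any alternative that held it, but naming by the mean over both groups favours members that are higher in MI hearts, so this is no sign of stability. Low signal limits the 20 other members.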
